A study of Mus musculus with 22 samples.

Results

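The cells described here are splenic germinal center B cells of the 2 libraries sorted for binding of the hapten NP, split by the antibody class that their heavy chain contig carries: IgG3 cells, set against IgG2c cells. A cell was included if it had at least 500 detected genes, at most 10% mitochondrial transcript molecules (UMIs, unique molecular identifiers that count each captured transcript once) and a productive heavy chain contig under the same barcode. Where a cell had several productive heavy chain contigs, the one with most UMIs gave the class. This left 220 IgG3 cells in library NP 1 and 188 in library NP 2 (408 in all), and 236 IgG2c cells in NP 1 and 251 in NP 2 (487 in all). The 895 cells came from 4356 NP cells that passed the filter, of which 3070 had a productive heavy chain and 3059 an isotype call, and from 8873 cells in the series.

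The study measured single-cell RNA and rearranged antigen receptors in germinal center B cells of C57BL/6 mice, labelled male and 8 weeks old. For the NP libraries the mice received NP coupled to the carrier KLH with Alum and LPS intraperitoneally, and Fas-high, GL-7-high, NP-binding B220+ cells were sorted on day 13. All IgG3 and IgG2c cells therefore share the immunization, the adjuvants, the sort and the library, and they differ by the constant region read from the contig. Another library, OVA 1, held germinal center B cells of mice given ovalbumin with the same adjuvants, sorted without an antigen gate. It had 45 IgG3 and 127 IgG2c cells, and its labels give no day after immunization. OVA 1 serves here for values set beside those of the NP cells.

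A B cell that switches class keeps its rearranged V region and replaces the constant region by deleting the DNA between the switch region upstream of Ighm and that of another constant region gene. On mouse chromosome 12 the genes stand in the order Ighm, Ighd, Ighg3, Ighg1, Ighg2b, Ighg2c, Ighe, Igha, so an IgG3 cell still carries Ighg2c on the switched chromosome, whereas an IgG2c cell has deleted Ighg3 from it. In mice, IgG3 is a class typical of responses to LPS and to T cell-independent antigens, and IgG2c, the C57BL/6 counterpart of IgG2a, is favoured by interferon gamma and the transcription factor T-bet. In C57BL/6 mice the response to NP is known to be led by receptors that pair IGHV1-72 with a lambda light chain, often with a tyrosine early in the heavy chain CDR3.

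The CDR3 is the stretch of the heavy chain where V, D and J segments join, and it identifies a clone, defined here as cells of a library that share V and J genes and the CDR3 nucleotides. The following CDR3 sequences, read 5′ to 3′ from the deposited contig annotations of the heavy chain locus on chromosome 12, belong to the clones with most IgG3 or IgG2c cells in each library; capitals mark CDR3 codon 4.
IGHV1-53 IGHJ1, 9 IgG3 cells of NP 1: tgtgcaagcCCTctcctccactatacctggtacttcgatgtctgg
IGHV1-72 IGHJ2, 8 IgG3 cells of NP 2: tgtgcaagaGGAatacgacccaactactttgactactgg
IGHV1-72 IGHJ2, 10 IgG2c cells of NP 1: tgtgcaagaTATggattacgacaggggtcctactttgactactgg
IGHV14-3 IGHJ3, 8 IgG2c cells of NP 2: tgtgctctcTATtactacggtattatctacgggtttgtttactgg
IGHV1-78 IGHJ2, 3 IgG3 and 9 IgG2c cells of NP 1: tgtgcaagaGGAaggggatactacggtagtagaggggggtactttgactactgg
The IGHV1-53 and IGHV1-78 clones carried kappa light chains (IGKV4-57-1 and IGKV9-120), and the other 3 carried IGLV1.

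Of all CDR3 rearrangements of the compared cells, 4 were found in both NP libraries, and all 4 joined IGHV1-72 to IGHJ2. They are shown because they are the receptors that both libraries share; capitals mark the same codon.
IGLV1 cells, 0 IgG3 and 1 IgG2c in NP 1, 0 IgG3 and 2 IgG2c in NP 2: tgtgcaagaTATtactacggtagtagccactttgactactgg
IGLV1 cells, 1 IgG3 and 1 IgG2c in NP 1, 4 IgG3 and 0 IgG2c in NP 2: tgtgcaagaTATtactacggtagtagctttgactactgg
IGLV1 cells, 0 IgG3 and 1 IgG2c in NP 1, 2 IgG3 and 0 IgG2c in NP 2: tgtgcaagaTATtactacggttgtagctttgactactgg
IGLV2 cells, 0 IgG3 and 1 IgG2c in NP 1, 1 IgG3 and 2 IgG2c in NP 2: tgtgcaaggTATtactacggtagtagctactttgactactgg
All 4 have the tyrosine codon TAT at codon 4, and the same rearrangement appeared under IgG3 in one library and under IgG2c in the other for 3 of them. No cell barcode of the compared cells was shared between NP 1 and NP 2, although 11 barcodes of the whole libraries were. Why these rearrangements recur was not tested.

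The compared groups had like depth within each library. Median UMIs per cell were 7682.5 in IgG3 cells and 7659 in IgG2c cells of NP 1, and 8800.5 in IgG3 cells and 8074 in IgG2c cells of NP 2. Summed over cells, the groups held 1915716 and 1801178 UMIs for IgG3 (NP 1, NP 2) and 2040094 and 2284075 for IgG2c. Median heavy chain contig UMIs were 5 in IgG3 cells and 4 in IgG2c cells of NP 1, and 10 and 6 in those of NP 2, so the IgG2c calls rest on fewer molecules. More than 1 productive heavy chain was found in 0.909% and 1.60% of IgG3 cells and in 2.54% and 1.99% of IgG2c cells (NP 1, NP 2).

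The labelled cell type was matched by its markers in both groups. Levels are given as CPM, the UMIs of a gene in the summed cells of a library and isotype, scaled to 1000000 non-immunoglobulin UMIs on library sizes adjusted by TMM (a normalization by trimmed means). Mef2b, a transcriptional regulator of germinal center B cells, had 557 and 601 CPM in IgG3 cells and 584 and 644 CPM in IgG2c cells (NP 1, NP 2). Rgs13, a regulator of chemokine signalling in these cells, had 459 and 556 CPM in IgG3 cells and 519 and 445 CPM in IgG2c cells. Markers of other cells were low: 7 of 12 T cell markers were at 0, Cd3e, Trbc1 and Trbc2 among them, with Lck giving most of a summed 127 and 93.9 CPM in IgG3 cells and 102.5 and 85.4 CPM in IgG2c cells (summed marker levels are CPM without the TMM adjustment). Of 9 NK cell markers 6 were at 0 and the sum was at most 0.990 CPM. Of 15 myeloid markers 6 were at 0, S100a8, S100a9 and C1qa among them, and the sum lay between 10.1 and 15.8 CPM in IgG3 cells and between 16.3 and 18.6 CPM in IgG2c cells. Follicular dendritic and stromal markers summed to 140 and 93.9 CPM in IgG3 cells and 139 and 120 CPM in IgG2c cells, nearly all from Cr2, which B cells also express, while Col1a1, Col3a1 and Vcam1 were at 0 or not in the table. Erythroid markers stood apart in a single sum, with 213 and 19.7 CPM in IgG3 cells against 62.9 and 19.0 CPM in IgG2c cells.

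The constant region transcripts of the gene expression libraries were then set beside the class read from the contigs. Since the class chose the cells, these values describe the groups and are not tested. Ighg3 was detected in 99.5% and 99.5% of IgG3 cells (NP 1, NP 2), with 9.59 and 8.96 UMIs per cell, and in 14.0% and 7.97% of IgG2c cells. Ighg2c was detected in 18.6% and 10.1% of IgG3 cells and in 94.5% and 88.8% of IgG2c cells, with 3.94 and 3.54 UMIs per cell there. The few cells with non-B markers, 5 in NP 1 and 16 in NP 2 with median depths of 4135 and 4013.5 UMIs, had no UMI of either gene, which allows shares of up to 52.2% and 20.6%. Those cells had Ighm UMIs in 80% and 62.5%, with at most 4 in a cell. Ighm was found in 26.4% and 35.1% of IgG3 cells and in 38.1% and 20.3% of IgG2c cells, with up to 30 and 20 UMIs in an IgG3 cell and up to 21 and 68 in an IgG2c cell. The shares lie below those of the cells with non-B markers, so no difference is read from them, and the source of the Ighm UMIs was not tested.

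IgG2c cells thus had fewer UMIs of their own constant region gene than IgG3 cells had of theirs; whether both genes are captured equally was not tested. The constant region gene with most UMIs matched the contig in 89.5% and 84.0% of IgG3 cells and in 60.6% and 64.1% of IgG2c cells (ties were given to the gene nearer the V genes). Among the IgG2c cells, Ighm led in 51 cells of NP 1 and 34 cells of NP 2. The contig and the gene table were therefore required to give the same isotype in an alternative chosen after seeing the data, and of the genes that pass the test of expression given after this, Ly6d, Crip1 and Hist1h2ak passed there and Hbb-bs did not.

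Ighe, the constant region gene that follows Ighg2c in the locus (Ighe chr12:113269263-113273248 and Ighg2c chr12:113287389-113288932, GRCm38.p6), was detected mainly on the IgG2c side. It had at least 1 UMI in 3.64% (exact 95% binomial interval 1.58% to 7.04%) and 0.532% (0.0135% to 2.93%) of IgG3 cells of NP 1 and NP 2, against 13.6% (9.46% to 18.6%) and 17.9% (13.4% to 23.2%) of IgG2c cells. These and all other intervals cover counting error only. The IgG3 cells held 9 and 1 Ighe UMIs, and the IgG2c cells held 35 and 48. In OVA 1, median depth was 7847 UMIs in IgG3 cells and 9948 UMIs in IgG2c cells. Ighe was found there in 0 of 45 IgG3 cells, which allows a share of up to 7.87%, and in 12.6% of IgG2c cells. The cells with non-B markers had none. The intervals of the groups do not overlap in either NP library. No IgG3 or IgG2c cell of the NP libraries carried more than 3 Ighe UMIs, and whether reads of the neighbouring gene contribute was not tested.

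Other constant regions differed less evenly. Ighg1 was detected in 25.0% and 28.2% of IgG3 cells and in 13.1% and 7.17% of IgG2c cells, with the higher share in IgG3 cells of both libraries. Ighg2b was detected in 15.5% and 9.57% of IgG3 cells and in 12.3% and 16.3% of IgG2c cells, with opposite directions in NP 1 and NP 2. Igha, the last gene of the locus, was found in 14.1% and 13.8% of IgG3 cells and in 20.8% and 15.5% of IgG2c cells.

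**Figure D1:**
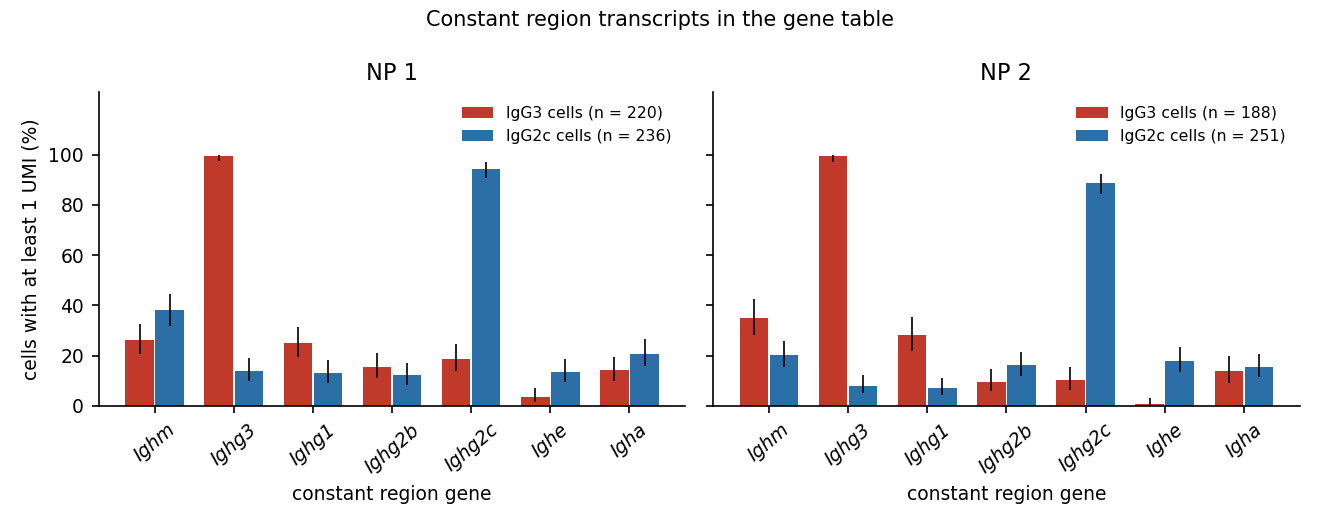
Share of cells (%) with at least 1 UMI of each constant region gene, IgG3 cells in red and IgG2c cells in blue, for NP 1 on the left and NP 2 on the right, with exact 95% binomial intervals. Ighg3 reached 99.5% of IgG3 cells, Ighg2c reached 94.5% and 88.8% of IgG2c cells, and Ighe was found in 13.6% and 17.9% of IgG2c cells against 3.64% and 0.532% of IgG3 cells.

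Outside the immunoglobulin genes, few genes passed the test for a difference in expression between IgG3 and IgG2c germinal center cells. Ly6d was higher in IgG3 cells, by 1.00 on the log2 scale, and Crip1 was lower, with a log2 difference of -0.33; both had that direction in each library. The globin gene Hbb-bs and the histone gene Hist1h2ak also passed the test, and neither passed when the highest cell of each sum was left out, where the log2 difference of Hbb-bs was 0.19 and that of Hist1h2ak 0.87. UMIs were summed per library and isotype class into 10 sums and compared by the quasi-likelihood test of edgeR, in which library was a block, and p-values were adjusted by Benjamini-Hochberg over the 9074 genes tested. At an adjusted p under 0.05, 4 genes passed (0.0441% of those tested), 3 higher and 1 lower in IgG3 cells. At an unadjusted p under 0.05 there were 514, with 274 higher and 240 lower. Over all tested genes 4552 of 9074 were higher in IgG3 cells by sign, and the median log2 difference was 0.00. Nothing in the labels says that NP 1 and NP 2 came from separate animals, so the p-values are not read as a spread between animals. They measure the spread left among the 10 sums after library and class are fitted, with 4 residual degrees of freedom. To this edgeR adds a spread shared across genes (median prior degrees of freedom 45.2). A permutation test over 2 libraries could not reach 0.05.

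Ly6d encodes a GPI-anchored surface protein of the Ly6 family, known as a marker of B lineage commitment in lymphoid progenitors. Its gene lies at chr15:74762056-74763567 (GRCm38.p6). Ly6d had 129 and 209 CPM in IgG3 cells (252 and 356 UMIs in NP 1 and NP 2), against 62.5 and 106 CPM in IgG2c cells (130 and 228 UMIs). Within each library IgG3 cells were higher, by log2 1.04 in NP 1 and 0.97 in NP 2, while the IgG3 value of NP 1 and the IgG2c value of NP 2 lay close together. The fitted log2 difference was 1.00 ± 0.12 (SE; edgeR adjusted p = 3.58e-07).

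Among all classes, Ly6d was highest in IgM or IgD cells (233 and 279 CPM) and lowest in IgG2c cells, with IgG1 (101 and 172 CPM) and IgG2b (110 and 177 CPM) between. OVA 1 had its highest and lowest Ly6d in the same classes. There Ly6d had 255 CPM, without the TMM adjustment, in IgG3 cells (exact Poisson 95% interval 206 to 312) and 124 CPM in IgG2c cells (106 to 144), a log2 ratio of 1.04 from 1 library, without a test.

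The Ly6d difference was spread over cells. At least 1 Ly6d UMI was found in 37.3% and 59.6% of IgG3 cells and in 23.3% and 35.5% of IgG2c cells of NP 1 and NP 2; cells with non-B markers had it in 0 of 5 and 0 of 16, which allows up to 52.2% and 20.6%. The highest single cell held 40 of the 252 UMIs of the NP 1 IgG3 cells. In IGHV1-72 lambda cells alone, Ly6d had 168 and 203 CPM (without the TMM adjustment, as for the other subsets given here for Ly6d and Crip1) in IgG3 cells against 60.1 and 103 in IgG2c cells (log2 1.15, edgeR adjusted p = 1.49e-07 in the fit on those cells). Cells with other receptors had 93.1 and 197 CPM in IgG3 cells against 60.9 and 97.2 in IgG2c cells, where the difference did not pass the test (log2 0.82, edgeR adjusted p = 0.0911). In clones that held both classes, with 25 and 20 IgG3 cells and 33 and 23 IgG2c cells, Ly6d had 142 and 152 CPM in IgG3 cells, against 73.8 and 139 in IgG2c cells. Within such clones the NP 2 values lie close together, inside each other's counting intervals. The NP 1 intervals also overlap, at 96.9 to 200 CPM in IgG3 cells and 46.2 to 112 CPM in IgG2c cells.

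Crip1 encodes a small cysteine-rich protein with a LIM domain. The gene lies at chr12:113152012-113153879 (GRCm38.p6), 102325 bases from Igha on the side away from the V genes. Crip1 had 1253 and 1572 CPM in IgG3 cells, against 1695 and 1842 CPM in IgG2c cells (NP 1, NP 2). IgG3 cells were lower within each library, by log2 -0.44 in NP 1 and -0.23 in NP 2, and both IgG3 values lay below both IgG2c values. The fitted log2 difference was -0.33 ± 0.05 (edgeR adjusted p = 8.35e-05). IgM or IgD cells had the lowest Crip1 (1209 and 1317 CPM). In both NP libraries IgG1 cells (1465 and 1834 CPM) and IgG2b cells (1431 and 1755 CPM) lay above the IgG3 cells. In OVA 1 they did not, with 1706.6 CPM in IgG3 cells, 1631.5 in IgG1 cells and 1693.9 in IgG2b cells (without the TMM adjustment).

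The Crip1 call was lost in the fit that added OVA 1 (log2 -0.28, edgeR adjusted p = 0.145), where 1707 CPM in IgG3 cells stood against 1919 in IgG2c cells. It was also lost among cells with receptors other than IGHV1-72 with lambda (log2 -0.30, edgeR adjusted p = 0.121). In clones holding both classes, Crip1 had 1328 and 1571 CPM in IgG3 cells, against 1969 and 1616 in IgG2c cells. Since Crip1 lies beside the heavy chain locus, its neighbours were counted. Of 18 protein-coding genes within 500000 bases of the locus, 13 were in the table and 11 were tested; Crip1 alone passed, and 6 of the 11 were higher in IgG3 cells by sign. Its neighbour Crip2, of the same family, had 1.53 and 6.45 CPM in IgG3 cells and 6.25 and 5.12 CPM in IgG2c cells. The next better expressed neighbour, Pld4, an exonuclease of endolysosomes, had 93.6 and 110 CPM in IgG3 cells and 82.2 and 120 CPM in IgG2c cells.

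**Figure D2:**
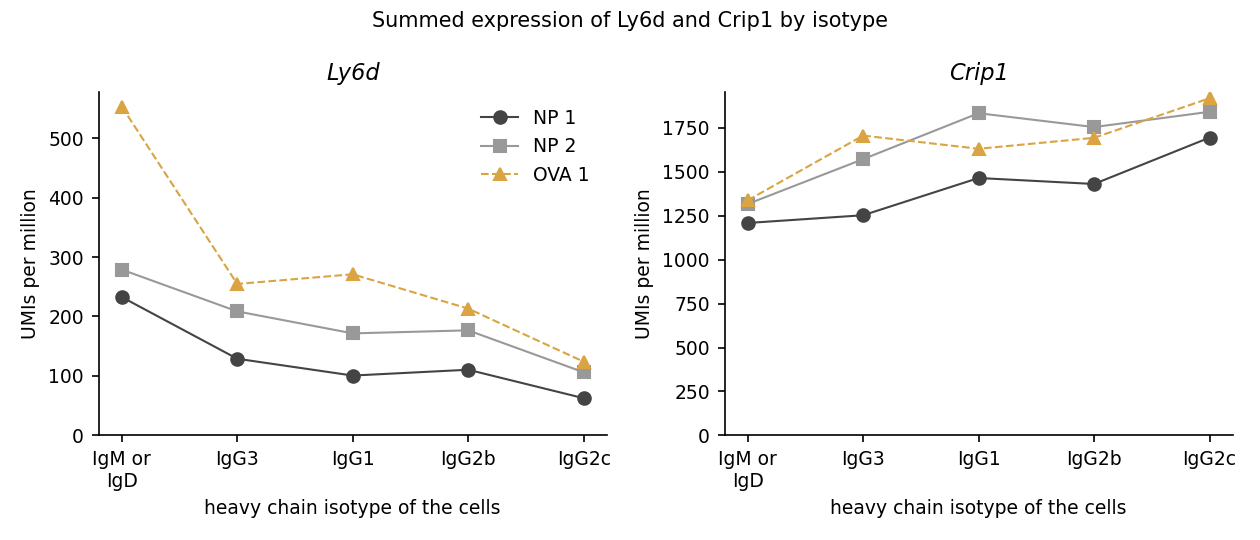
Level of Ly6d (left) and Crip1 (right) in CPM, for the summed cells of each isotype class in NP 1, NP 2 and OVA 1; NP values are on TMM-adjusted library sizes and OVA 1 values are not. Ly6d was lowest in IgG2c cells and highest in IgM or IgD cells of every library, and Crip1 was highest in IgG2c cells, by 1842 CPM against 1834 CPM in IgG1 cells of NP 2.

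Hbb-bs, an adult beta globin, had 49.1 and 4.69 CPM in IgG3 cells against 9.13 and 4.65 CPM in IgG2c cells, so the groups differed in NP 1 alone. A single IgG3 cell of NP 1 held 77 of its 96 UMIs and 104 UMIs of the alpha globin Hba-a1. The fitted log2 difference of Hbb-bs was 1.95 ± 0.38 (edgeR adjusted p = 0.0137), and it was 0.18 (adjusted p = 0.981) without the cells that had at least 10 hemoglobin UMIs.

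Hist1h2ak, a replication-dependent histone H2A gene whose paralogs are nearly identical and can share reads, had 29.2 and 38.1 CPM in IgG3 cells against 16.8 and 14.4 CPM in IgG2c cells. Its log2 difference was 1.11 ± 0.22 (edgeR adjusted p = 0.0219), and 34 of the 65 UMIs of the NP 2 IgG3 cells were in 1 cell. With the highest cell of each sum left out the difference was 0.87 (adjusted p = 0.649), and with 1 cell per clone it was 1.00 (adjusted p = 0.759). OVA 1 had 1 UMI in IgG3 cells and 13 in IgG2c cells.

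**Figure D3:**
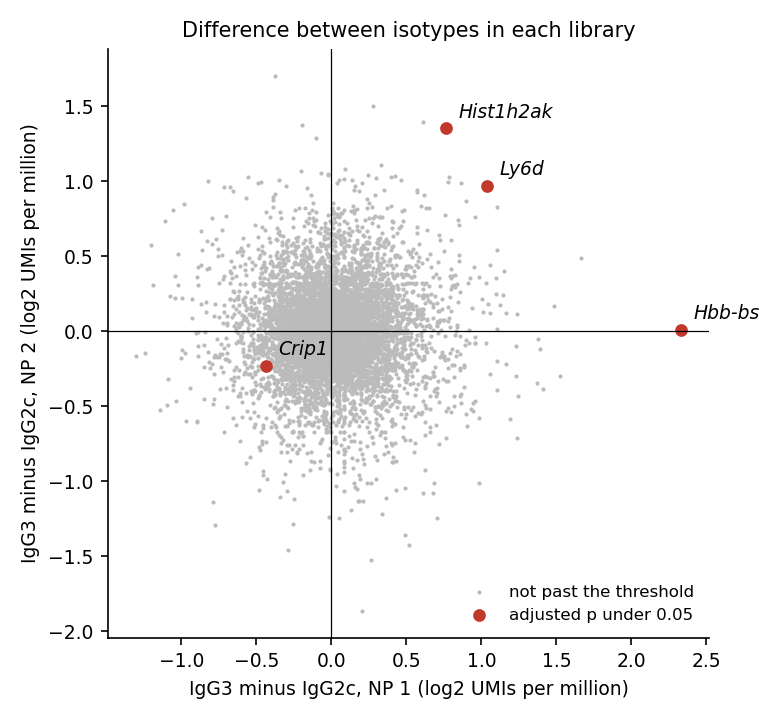
Log2 difference between IgG3 and IgG2c cells in NP 1 (horizontal axis) and NP 2 (vertical axis) for the 7548 genes with a mean above 10 CPM; red points are the 4 genes with an edgeR adjusted p under 0.05. Ly6d lies at 1.04 and 0.97, Crip1 at -0.44 and -0.23, Hist1h2ak at 0.77 and 1.35, and Hbb-bs at 2.33 and 0.01.

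The genes tied to the signals known to direct these classes were then described, list by list. No list had a member past the threshold except the erythroid markers, with Hbb-bs. Of 15 tested genes of the interferon gamma and T-bet program, 6 were higher in IgG3 cells by sign, and the median log2 difference was -0.14 beside 0.00 over all genes. Tbx21, which encodes T-bet, had 9.72 and 12.3 CPM in IgG3 cells against 16.8 and 16.3 CPM in IgG2c cells. Both IgG3 values lay below both IgG2c values, but the difference did not pass (log2 -0.60 ± 0.30, unadjusted p = 0.0476, edgeR adjusted p = 0.873). Cxcr3, a chemokine receptor and T-bet target, had 8.70 and 17.0 CPM in IgG3 cells and 8.17 and 28.4 CPM in IgG2c cells, so that NP 2 alone differed. Ifngr1, a chain of the interferon gamma receptor, had 63.5 and 65.6 CPM in IgG3 cells and 63.0 and 79.1 CPM in IgG2c cells.

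Further along that pathway, Jak1, the receptor-associated kinase, had 168 and 150 CPM in IgG3 cells and 195 and 192 CPM in IgG2c cells (log2 -0.28 ± 0.09). Socs1, the feedback inhibitor of cytokine receptors, had 28.1 and 26.4 CPM in IgG3 cells and 40.4 and 33.5 CPM in IgG2c cells (log2 -0.44 ± 0.18). Both were lower in IgG3 cells in each library and missed the threshold. Irf1, an interferon-induced transcription factor, differed by log2 -0.13 ± 0.21 and Zeb2, a T-bet partner in atypical B cells, by 0.38 ± 0.34. Of 9 tested type I interferon response genes, 5 were higher by sign (median 0.09), led by Ifi27l2a, with 110 and 217 CPM in IgG3 cells and 107 and 154 CPM in IgG2c cells.

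Toll-like receptor and LPS signalling is a known route to IgG3 switching in culture. Of its 15 tested genes 2 were higher in IgG3 cells by sign, beside 4552 of all 9074 genes, and the median was -0.20. An unadjusted p under 0.05 was found for 514 of all 9074 genes and for 1 gene of this list. That gene was Tlr1, a receptor of bacterial lipopeptides, with 20.5 and 18.2 CPM in IgG3 cells and 28.8 and 24.7 CPM in IgG2c cells. Tlr4, the LPS receptor itself, was barely detected, with 5.63 and 7.62 CPM in IgG3 cells and 7.21 and 8.38 CPM in IgG2c cells. Tlr9, the sensor of unmethylated DNA, had 18.4 and 16.4 CPM in IgG3 cells and 22.6 and 25.1 CPM in IgG2c cells.

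Genes of the remaining switch signals did not pass either. Of 11 tested genes of the IL-4 and STAT6 response, which favours IgG1 and IgE, 4 were higher by sign (median -0.17); Fcer2a, the low-affinity IgE receptor, had 135 and 151 CPM in IgG3 cells and 136 and 195 CPM in IgG2c cells. Of 12 TGF-beta genes 6 were higher (median 0.00), and Smad4, the shared signal transducer, had 12.8 and 7.62 CPM in IgG3 cells and 15.9 and 16.8 CPM in IgG2c cells. Of 26 genes of switch recombination and hypermutation 8 were higher (median -0.09), and the smallest p belonged to the mismatch repair gene Pms2, with 23.0 and 22.9 CPM in IgG3 cells and 29.3 and 37.7 CPM in IgG2c cells (edgeR adjusted p = 0.720).

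IgG3 is also known from marginal zone and B-1 cells, and their markers were listed. Of 11 tested, 4 were higher by sign and none passed (median -0.09). Cd9, a tetraspanin of marginal zone and B-1 cells, had 13.3 and 15.8 CPM in IgG3 cells against 6.25 and 5.12 CPM in IgG2c cells, a log2 difference of 1.36 ± 0.38 that missed the threshold (edgeR adjusted p = 0.352). In the fit on IGHV1-72 lambda cells alone Cd9 passed (log2 2.43, edgeR adjusted p = 0.0211), with 20 and 24 UMIs in IgG3 cells against 4 and 5 UMIs in IgG2c cells. Cells with other receptors had few Cd9 UMIs, 6 and 3 in IgG3 cells against 9 and 6 in IgG2c cells. Of the 9 UMIs of NP 1, 5 were in 1 cell. Cd9 was found in 5.26% and 5.36% of these IgG3 cells against 5.10% and 6.38% of the IgG2c cells, so no direction is read there. The difference between receptor classes did not pass (log2 2.82 ± 0.80, edgeR adjusted p = 0.842). S1pr1, a receptor that guides cells out of follicles, went the other way, with 1.02 and 2.34 CPM in IgG3 cells and 4.33 and 7.44 CPM in IgG2c cells. Cr2, the complement receptor CD21, had 132 and 97.3 CPM in IgG3 cells and 135 and 126 CPM in IgG2c cells.

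Germinal center cells cycle between a dark zone of division and a light zone of antigen capture and T cell help. Of 30 G2 and M genes, which act around mitosis, 25 had a positive sign in IgG3 cells, with a median of 0.15, and 9 were higher and 1 lower at an unadjusted p under 0.05. Over all 9074 genes 4552 were higher by sign, and 274 were higher and 240 lower at that p. Summed, the G2 and M list had 3012 and 2645 CPM in IgG3 cells against 2531 and 2544 CPM in IgG2c cells (NP 1, NP 2). The larger difference was in NP 1. Cdc20, the activator of the anaphase-promoting complex, had 110 and 155 CPM in IgG3 cells and 77.4 and 114 CPM in IgG2c cells (log2 0.46 ± 0.11, edgeR adjusted p = 0.191). Its partner Ube2c, an E2 enzyme of the same complex, had 128 and 111 CPM in IgG3 cells and 100 and 80.0 CPM in IgG2c cells. Of 25 S phase genes 5 were higher by sign, with a median of -0.07. Rrm2, the ribonucleotide reductase subunit, had 223 and 201 CPM in IgG3 cells and 242 and 258 CPM in IgG2c cells. Of 19 dark zone genes 14 were higher by sign (median 0.07). Their sum was higher in IgG3 cells of NP 1 alone, at 6291 and 5609 CPM against 5763 and 5626 CPM in IgG2c cells. Mki67 had 429 and 315 CPM in IgG3 cells and 325 and 324 CPM in IgG2c cells, differing in NP 1 alone. Whether the cells differ in their share of G2 and M phase was not tested.

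Light zone genes went both ways, with 11 of 20 higher by sign and 5 in each direction at an unadjusted p under 0.05. Among all 9074 genes, 4552 were higher by sign, and 274 were higher and 240 lower at that p. Nr4a1, an early gene induced by antigen receptor signals, had 15.9 and 9.38 CPM in IgG3 cells against 6.73 and 2.79 CPM in IgG2c cells (log2 1.42 ± 0.39, edgeR adjusted p = 0.352). Nfkbid, a nuclear regulator of NF-kappa B, had 36.3 and 63.3 CPM in IgG3 cells against 29.8 and 21.9 CPM in IgG2c cells (log2 0.92 ± 0.22, edgeR adjusted p = 0.151), and 30 of the 108 UMIs of the NP 2 IgG3 cells were in 1 cell. Icam1, an adhesion molecule of contact with T cells, was on the other side, with 102 and 64.5 CPM in IgG3 cells and 123 and 98.2 CPM in IgG2c cells. The activation markers Cd83 and Cd86 differed by log2 0.18 ± 0.07 and 0.02 ± 0.11, Cxcr4, the chemokine receptor of the dark zone, by 0.10 ± 0.13, and the cyclin Ccnb1 by 0.05 ± 0.15; none of them passed.

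Of 22 MYC target genes 17 were higher in IgG3 cells by sign (median 0.13). At an unadjusted p under 0.05, 9 were higher and 0 lower, none past the adjusted threshold. Among all genes 4552 of 9074 were higher by sign, and 274 were higher and 240 lower at that p. Summed, the list was higher in IgG3 cells of NP 1 alone, at 7161 and 6549 CPM against 6253 and 6599 CPM in IgG2c cells (NP 1, NP 2). Odc1, the first enzyme of polyamine synthesis, had 150 and 200 CPM in IgG3 cells and 119 and 166 CPM in IgG2c cells. Gnl3, a nucleolar GTPase, had 64.5 and 63.9 CPM in IgG3 cells and 37.0 and 54.4 CPM in IgG2c cells. Myc itself had 49.1 and 34.0 CPM in IgG3 cells and 32.2 and 32.1 CPM in IgG2c cells (log2 0.38 ± 0.18). The 44 nuclear-encoded genes of oxidative phosphorylation were split evenly, 22 higher by sign, with a median of 0.01, and 7 of the 13 mitochondrially encoded ones were higher, with a median of 0.00.

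Germinal center factors and genes of memory and naive B cells had more negative than positive differences. Of 21 germinal center factors 7 were higher by sign (median -0.08) and 6 were lower at an unadjusted p under 0.05. Among all 9074 genes 4552 were higher by sign and 240 were lower at that p. Summed, the list had 6059 and 6342 CPM in IgG3 cells against 6757 and 6357 CPM in IgG2c cells (NP 1, NP 2). The sums thus differed mainly in NP 1. S1pr2, the receptor that confines germinal center B cells to follicles, had 225 and 194 CPM in IgG3 cells and 284 and 242 CPM in IgG2c cells (log2 -0.33 ± 0.08, edgeR adjusted p = 0.294). Bcl6, the repressor that defines germinal center B cells, had 103 and 78.5 CPM in IgG3 cells and 103 and 74.4 CPM in IgG2c cells, and Fas, the death receptor used in the sort, had 160 and 185 CPM in IgG3 cells and 176 and 172 CPM in IgG2c cells. Both differed by less than their error. Of 19 memory and naive B cell genes 6 were higher by sign (median -0.12). Bank1, a scaffold of antigen receptor signalling, had 136 and 157 CPM in IgG3 cells and 169 and 210 CPM in IgG2c cells (log2 -0.37 ± 0.10, edgeR adjusted p = 0.294). Klf2, a factor of quiescence and egress, had 8.70 and 15.2 CPM in IgG3 cells and 2.88 and 15.8 CPM in IgG2c cells, and Cd38 differed by log2 0.03 ± 0.25. Ccr6, a receptor of memory precursors, was too low to test, with 4 and 0 UMIs in IgG3 cells and 1 and 8 UMIs in IgG2c cells. Slpi, a secreted protease inhibitor placed in the plasma cell list, had 59.4 and 65.6 CPM in IgG3 cells and 90.8 and 109 CPM in IgG2c cells (log2 -0.68 ± 0.18, edgeR adjusted p = 0.294). It was detected in 25.5% and 29.3% of IgG3 cells and in 31.4% and 29.5% of IgG2c cells. Among IGHV1-72 lambda cells these shares were 25.6% and 29.2% against 25.2% and 28.4%. With other receptors they were 26.3% and 26.8% against 39.8% and 31.9%.

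Plasma cell genes were higher by sign in 6 of 13, with Irf4 at 21.0 and 17.0 CPM in IgG3 cells and 15.9 and 13.5 CPM in IgG2c cells and Xbp1 at 101 and 86.1 CPM in IgG3 cells and 101 and 90.7 CPM in IgG2c cells. MHC class II presentation genes were higher in 3 of 13 (median -0.06), and antigen receptor signalling genes in 6 of 22 (median -0.03). H2-Aa, a class II alpha chain, differed by log2 -0.11 ± 0.04, and Btk, the kinase downstream of the receptor, had 101 and 97.3 CPM in IgG3 cells and 126 and 114 CPM in IgG2c cells. Chemokine and homing receptors were higher in 7 of 15 (median -0.10), Fc and complement receptors in 2 of 9 (median -0.02). Genes of the dissociation response were higher in 2 of 11 (median -0.13), and Fos had 24.6 and 21.7 CPM in IgG3 cells and 29.3 and 47.9 CPM in IgG2c cells.

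**Figure D4:**
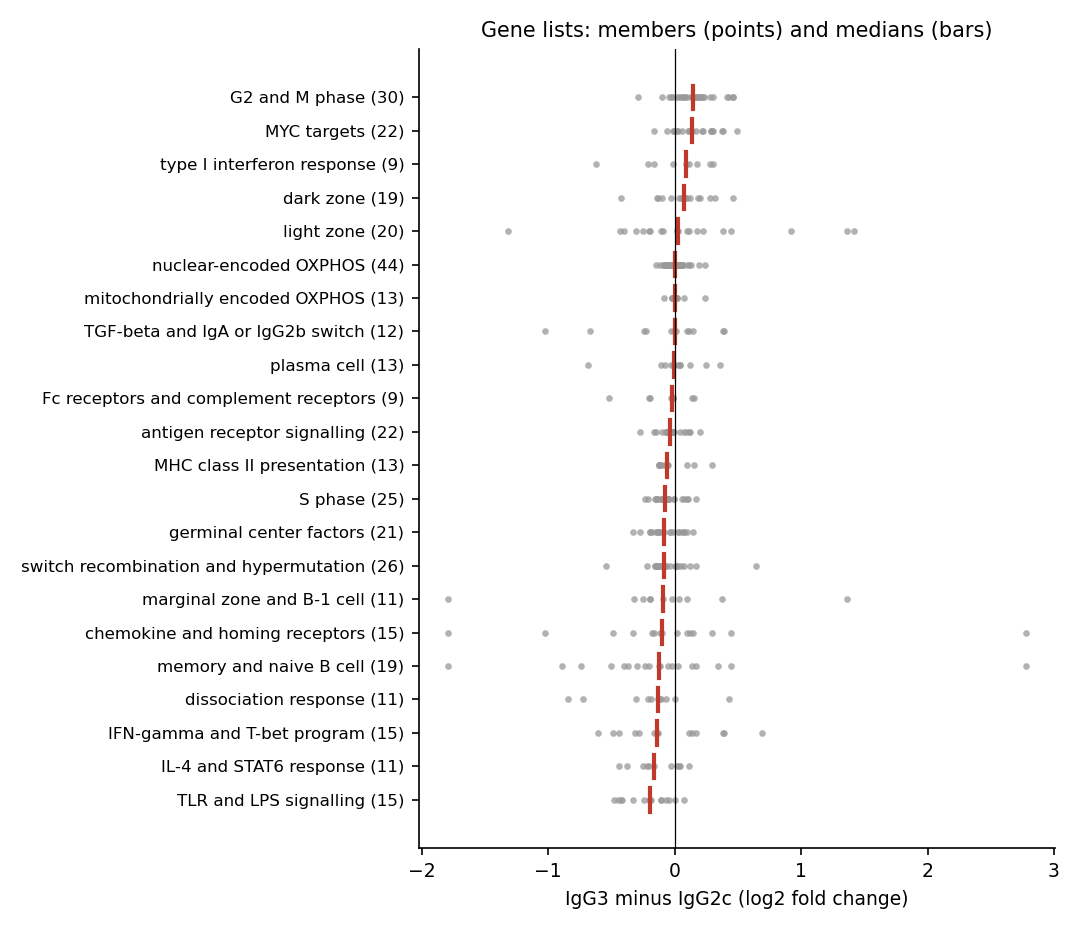
Fitted log2 difference, IgG3 minus IgG2c, of the tested members (grey points) of 22 gene lists, with each list's median as a red bar and the number of tested members in brackets. Medians run between 0.15 for G2 and M phase and -0.20 for Toll-like receptor and LPS signalling, and no member of these lists passed the adjusted threshold.

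Whether the isotype difference depends on the receptor was asked by splitting each group into IGHV1-72 lambda cells (121 and 130 IgG3 cells, 135 and 155 IgG2c cells in NP 1 and NP 2) and cells with other receptors (95 and 56 IgG3 cells, 98 and 94 IgG2c cells). In the test of the difference of differences, 2 of 7837 genes passed (0.0255%), and 275 had an unadjusted p under 0.05. Batf, a transcription factor of switch recombination, had 72.4 and 22.5 CPM (TMM-adjusted, as for Lars2) in IGHV1-72 lambda cells of IgG3 against 23.8 and 17.4 in those of IgG2c, and 45.3 and 12.2 in other IgG3 cells against 70.8 and 51.3 in other IgG2c cells. Its log2 interaction was 2.15 ± 0.40 (edgeR adjusted p = 0.0370), and single cells held 26 of 65 and 25 of 39 Batf UMIs of the other IgG2c cells. Lars2, the mitochondrial leucyl-tRNA synthetase, had a log2 interaction of 0.68 ± 0.13 (edgeR adjusted p = 0.0449), with 957 and 1496 CPM in IGHV1-72 lambda cells of IgG3 against 754 and 1406 in those of IgG2c, and 654 and 804 in other IgG3 cells against 882 and 1173 in other IgG2c cells. In NP 2, single IGHV1-72 lambda cells held 555 of the 1795 Lars2 UMIs of IgG3 and 488 of the 1944 of IgG2c. With 1 cell per clone, with DESeq2 and without the library block, no gene passed (326, 17 and 91 had an unadjusted p under 0.05).

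IGHV1-72, the leading V gene against NP, was carried by 58.6% (exact 95% interval 51.8% to 65.2%) and 70.7% (63.7% to 77.1%) of IgG3 cells and by 61.9% (55.3% to 68.1%) and 62.5% (56.2% to 68.6%) of IgG2c cells (NP 1, NP 2). The share was thus lower in IgG3 cells of NP 1 and higher in those of NP 2. The difference averaged 2.48 ± 8.08 percentage points (SD over 2 libraries). In clones, IGHV1-72 made up 96 and 102 clones of IgG3 and 103 and 121 clones of IgG2c (log2 0.10 ± 0.10). The edgeR test on clone counts called 0 of 18 heavy chain V genes and 0 of 17 light chain V genes (0.0% each); at an unadjusted p under 0.05 there was 1 of each. IGHV1-76 and IGKV6-25 entered through clones of other classes and had 0 clones in IgG3 and IgG2c cells, and several others had few clones, so a difference in them was not detectable at this depth.

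The heavy chain V gene with the smallest p was IGHV14-3. It was carried by 7.73% (4.57% to 12.1%) and 3.72% (1.51% to 7.52%) of IgG3 cells, against 11.4% (7.68% to 16.2%) and 14.3% (10.3% to 19.3%) of IgG2c cells. IgG3 cells were lower in both libraries, by 13 and 7 clones against 24 and 23 clones of IgG2c, and the difference did not pass (log2 -0.96 ± 0.38, unadjusted p = 0.0149, edgeR adjusted p = 0.267). IGHV14-3 paired with lambda in 17 of 17 and 7 of 7 IgG3 cells and in 27 of 27 and 34 of 35 IgG2c cells with a light chain. The clone shown above with 8 IgG2c cells of NP 2 is an example.

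For other V genes the clone counts were small or differed in direction between libraries. IGHV1-22 was carried by 4.55% and 11.7% of IgG3 cells and by 3.39% and 1.59% of IgG2c cells, in 6 and 16 clones of IgG3 and 8 and 4 clones of IgG2c (log2 1.15 ± 0.59, edgeR adjusted p = 0.50). IGHV1-53 was carried by 8.64% and 4.79% of IgG3 cells and by 2.97% and 5.58% of IgG2c cells; 9 of the IgG3 cells of NP 1 belong to the clone shown above. IGHV1-78 had 6 and 0 clones in IgG3 and 15 and 0 in IgG2c, so it was seen in NP 1 alone. IGHV3-6 had 4 and 1 clones in IgG3 and 11 and 2 in IgG2c.

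Lambda light chains, which are rare in mouse B cells at large and common among NP binders, were carried by 67.1% and 83.3% of IgG3 cells and by 73.8% and 83.9% of IgG2c cells. Both classes had the higher share in NP 2. Among IGHV1-72 cells lambda reached 96.0% and 99.2% for IgG3 and 93.8% and 99.4% for IgG2c. Among cells with other heavy V genes, lambda was lower in IgG3 cells in both libraries, at 26.7% (17.9% to 37.0%) and 45.5% (32.0% to 59.4%), against 41.6% (31.2% to 52.5%) and 58.1% (47.4% to 68.2%) of IgG2c cells. The difference averaged -13.8 ± 1.62 points (SD over 2 libraries), while the intervals overlap in each library. Without the IGHV14-3 cells the lambda shares were 9.59% and 37.5% in IgG3 cells and 16.1% and 34.5% in IgG2c cells, with opposite directions in NP 1 and NP 2.

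Of the lambda V genes, IGLV1 was found in 107 and 101 clones of IgG3 and in 123 and 139 clones of IgG2c (log2 -0.07), and IGLV2 in 6 and 21 clones of IgG3 and 9 and 18 clones of IgG2c (log2 0.15). Neither passed the test.

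Within IGHV1-72, tyrosine at CDR3 codon 4 was found in 78.3% and 62.4% of IgG3 cells and in 69.9% and 70.1% of IgG2c cells, with opposite directions in NP 1 and NP 2 (0.387 ± 11.4 points, SD over 2 libraries). The J gene IGHJ2 was used by 80.6% (72.7% to 87.0%) and 80.5% (72.7% to 86.8%) of IGHV1-72 IgG3 cells and by 74.0% (66.1% to 80.9%) and 59.9% (51.8% to 67.6%) of IGHV1-72 IgG2c cells. The IgG3 share was higher in both libraries (13.6 ± 9.85 points, SD over 2 libraries). The intervals were apart in NP 2 alone, but they count cells, and cells of a clone share their J gene. IGHJ2 use was not counted by clone, so no difference is read from the intervals. The median CDR3 length was 14 codons in each group.

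**Figure D5:**
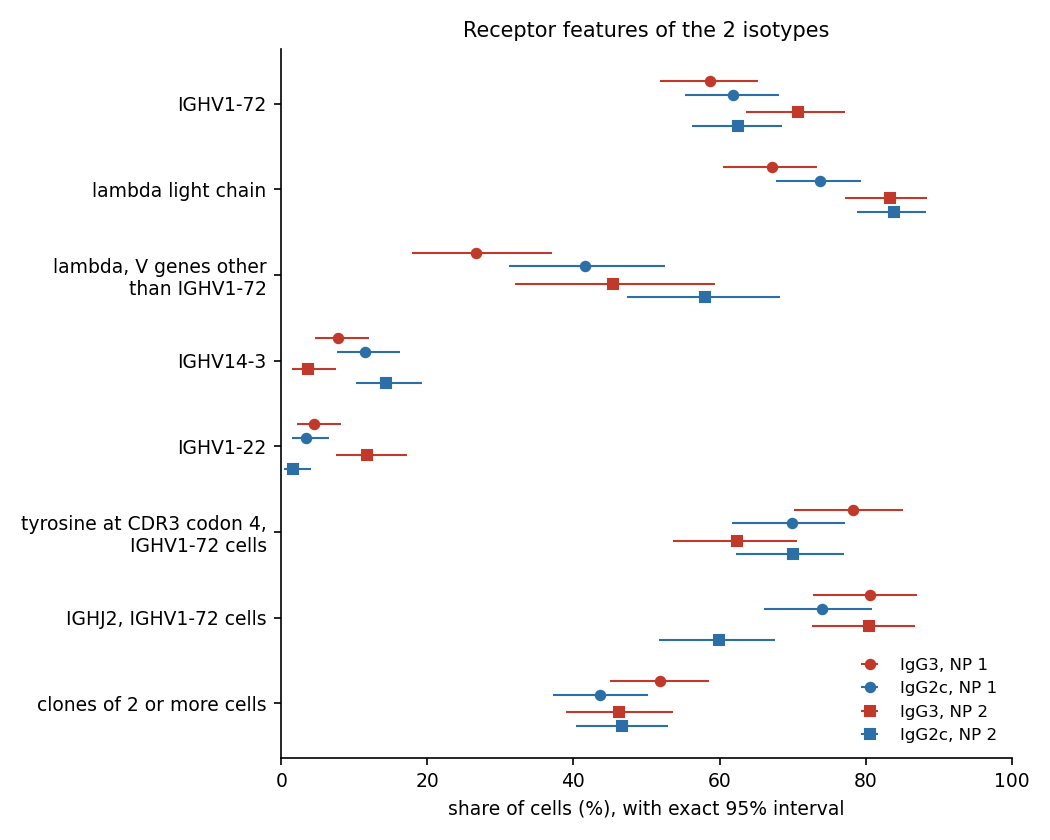
Share of cells (%) with 8 receptor features, with exact 95% binomial intervals, for IgG3 cells (red) and IgG2c cells (blue) of NP 1 (circles) and NP 2 (squares). IGHV14-3 was lower in IgG3 cells of both libraries (7.73% and 3.72% against 11.4% and 14.3% of IgG2c cells), and IGHV1-72 and the CDR3 tyrosine changed direction between libraries.

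IgG3 cells fell into 154 and 146 clones and IgG2c cells into 177 and 186 clones; drawn down to the number of IgG3 cells, the IgG2c cells gave 166.6 and 146.6 clones. The largest clones held 9 and 8 IgG3 cells and 10 and 8 IgG2c cells. Counting members of every class, 51.8% and 46.3% of IgG3 cells and 43.6% and 46.6% of IgG2c cells were in clones of 2 or more cells, a difference of 3.92 ± 6.02 points (SD over 2 libraries; 8.17 in NP 1 and -0.337 in NP 2). With the stricter cell filter, at least 1000 genes and at most 5% mitochondrial UMIs, the difference was 10.3 points. For clones of 5 or more cells the shares were 30.0% and 23.4% of IgG3 cells and 22.9% and 20.7% of IgG2c cells.

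Some clones held both classes. Of the clones with 2 or more cells, 48 and 45 held IgG3 cells and 44 and 51 held IgG2c cells, and 14 and 13 held both, which is 29.2% and 28.9% of the IgG3 clones and 31.8% and 25.5% of the IgG2c clones (NP 1, NP 2). The clone mates of IgG3 cells were IgG3 in 43.3% and 31.0% on average over clones, where IgG3 made up 13.4% and 13.3% of all NP cells with a class. The clone mates of IgG2c cells were IgG2c in 40.8% and 48.4%, where IgG2c made up 14.4% and 17.8%. Mates of either group were thus of the same class more often than the library's composition, as a description without a test. IgM or IgD cells were 23.4% and 27.8% of the mates of IgG3 cells and 17.8% and 19.6% of the mates of IgG2c cells, below their 45.0% and 43.0% of the libraries.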

How the data were processed

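UMI counts per gene and cell and assembled receptor contigs were deposited by the authors; the submitters' processing notes name Cell Ranger and the mm10 build. The deposited counts of 14407 genes were used without further correction. Library totals are given with the results. The members and gene lists were chosen with earlier results of these data known. The 225 immunoglobulin genes were removed, counts were summed per library and isotype class, and edgeR 4.0.16 (R 4.3.3) fitted 10 sums with TMM scaling, its default low-count filter and library as a block (4 residual degrees of freedom); genes with an adjusted p under 0.05 passed. V genes were tested on clone counts with at least 10 clones, without TMM. Genes named are those past the threshold with both library differences in the fit's direction, a fixed set (some of it not reported here), and up to 3 genes of smallest p per list; the genes of the interaction test and the neighbours of Crip1 were chosen after their values were seen. Doublets were not called; an alternative dropped cells in which 2 or more heavy chains were productive. Both classes of a library are from the same mixture of cells, so the library pairs them: their deviations correlated at 0.443 over 9074 genes. The fits were tested on simulated data. There the gene test called 30% of genes changed by log2 0.5 and 62% of those changed by log2 1, so differences of that size can be missed. DESeq2 1.42.0 was an alternative. Exact binomial and Poisson intervals used scipy 1.17.1. Coordinates are from RefSeq, GRCm38.p6. OVA bulk receptor libraries were not used here.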

Additional observations from a re-analysis of the deposited data

Results flagged for a closer look

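The test of the difference between receptor classes singled out Batf, with a log2 interaction of 2.15, and Lars2, with 0.68. Single cells held 26 of 65 and 25 of 39 Batf UMIs of the IgG2c cells with other receptors (NP 1, NP 2). For Lars2, single IGHV1-72 lambda cells of NP 2 held 555 of 1795 UMIs of IgG3 and 488 of 1944 of IgG2c. The highest cell held a smaller part of the other Lars2 sums.

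For the following genes both NP libraries had one direction by sign between IgG3 and IgG2c cells and OVA 1 had the other. This difference was not tested, and OVA 1 is 1 library of 45 IgG3 and 127 IgG2c cells. Its IgG3 cells formed 26 clones and had a median of 7847 UMIs. Its IgG2c cells formed 64 clones and had a median of 9948 UMIs. Log2 ratios of IgG3 over IgG2c in OVA 1 were positive, against negative values in NP 1 and NP 2, for Toll-like receptor genes (Tlr4 2.39, Tlr9 0.54, Tlr1 0.19) and the inducible Nfkbiz (1.26). The same held for the receptor genes Il2rg (0.81), Fcer2a (1.07) and Cr2 (0.66), the cytokine gene Ltb (0.44), the feedback inhibitor Socs1 (0.93) and the scaffold Bank1 (0.23). It also held for MHC class II genes (H2-Aa 0.47, H2-DMb2 0.46, H2-Eb1 0.30), for Icam1 (1.08), S1pr1 (0.32), S1pr2 (0.01), Ebf1 (0.23) and Egr1 (0.08). Log2 ratios in OVA 1 were negative, against positive values in NP 1 and NP 2, for cell cycle genes (Ube2c -1.34, Ccnb2 -0.25, Cdc20 -0.03), the polyamine genes Srm (-1.37) and Odc1 (-0.35), Hist1h2ak (-1.80), Ifi27l2a (-0.25) and Ndufb4 (-0.18). Some of these ratios rest on few OVA 1 UMIs. In IgG3 and IgG2c cells these were 7 and 5 for Tlr4, 7 and 18 for Tlr9, and 11 and 36 for Tlr1. They were 1 and 3 for S1pr1, 11 and 106 for Srm, and 1 and 13 for Hist1h2ak. S1pr2 (0.01) and Cdc20 (-0.03) barely differed in OVA 1, so no reversal is read for them. Other genes barely differed in 1 of the NP libraries. The log2 difference in NP 1 was -0.01 for Fcer2a, -0.03 for Cr2 and 0.04 for Ifi27l2a. In NP 2 it was -0.02 for Ltb and -0.05 for Nfkbiz. No reversal is read for these genes either. Of all genes named here only Hist1h2ak passed the test in the NP libraries.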

How the results depend on the processing

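Ly6d and Crip1 passed under DESeq2, thinning to 2500 UMIs, 1 cell per clone and with each gene's highest cell left out. The 4 called genes became 7 with only the 4 sums of the compared groups, 11 without the low-count filter, 2 with DESeq2 (74 at an unadjusted p under 0.05), with thinned cells or with the highest cell left out, 1 with OVA 1 added, and 0 with no replicate block (140 at an unadjusted p under 0.05), where the pairing by library is ignored; 3 to 5 passed elsewhere. The 2 interaction calls became 0 with DESeq2, with 1 cell per clone and with no replicate block, and 3 without the filter. No V gene passed under any alternative. Leaving out a library leaves no residual degrees of freedom for the gene test; the share differences then ran between -3.23 and 8.19 points for IGHV1-72, -6.69 and -0.602 for lambda, -0.337 and 8.17 for clones of 2 or more cells and -7.66 and 8.43 for the CDR3 tyrosine. With the stricter cell filter the clone difference was 10.3 points.

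Genes that changed sign were ones that had not passed, and the cause was not tested. With the highest cell left out, Irf1 was 0.22 and Cd38 -0.015. In IGHV1-72 lambda cells, Irf1 was 0.096, Cxcr4 -0.029, Bcl6 -0.068 and Xbp1 0.069. In the other receptors, Zeb2 was -0.034, Cd86 -0.048, Ccnb1 -0.10, Fas 0.031, Fcer2a 0.019 and Jund 0.028. With at least 3 heavy chain UMIs, Cxcr4 was -0.022, Ccnb1 -0.003 and Xbp1 0.01. With 1 cell per clone, Irf1 was 0.042, Tlr4 0.077 and Fas 0.032. Without the largest clones, Cd86 was -0.051 and Fas 0.02. With the stricter cell filter, Zeb2 was -0.31, Klf2 -0.92 and Cd38 -0.47. With contig and transcript in agreement, Zeb2 was -0.12, Bcl6 -0.066, Cd38 -0.20 and Tlr4 0.045. With OVA 1, Cxcr3 was 0.16, Ifngr1 0.068, Bcl6 -0.039, Ccnb1 -0.037, Cr2 0.003, Tlr4 0.24, Fas 0.015, Il2rg 0.032, Fcer2a 0.12, H2-Aa 0.085, H2-DMb2 0.027 and H2-Eb1 0.04. In thinned cells, Irf1 was 0.059, Cxcr4 -0.11, Cd86 -0.15, Bcl6 -0.20, Ccnb1 -0.46, Xbp1 0.002, Fas 0.14, Socs1 0.10 and Cd59a 0.15. Depth limits genes of under about 10 CPM, which had few UMIs per sum.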
